A study of Mus musculus with 48 samples.

Results

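The nuclear-coded subunits of the mitochondrial respiratory chain and of ATP synthase were followed in the cortex and hippocampus of APP/PS1 and WT mice drinking H2O or MSX-3. Members were all genes on the array whose symbol in the RefSeq gene table started with Ndufa, Ndufb, Ndufc, Ndufs, Ndufv, Uqcr, Cox4i, Cox5, Cox6, Cox7, Cox8 or Atp5, together with Sdha, Sdhb, Sdhc, Sdhd and Cyc1. This rule gave 93 genes with 115 probes among the 22911 named genes and 56605 probes of the array, and each gene was represented by its probe with the highest mean. Of the 93 genes, 92 were kept in both tissues by the filter on dim probes, and Cox8c, an isoform known from testis, was not. The 92 probes were well above background on all 46 arrays used, and 0 of them had a saturated spot.

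The respiratory chain carries electrons from NADH (complex I) and succinate (complex II) through complex III and cytochrome c to oxygen at complex IV, and complexes I, III and IV pump protons across the inner mitochondrial membrane. ATP synthase lets the protons flow back through its membrane part, called Fo, and makes ATP in its catalytic head, called F1. Most subunits are encoded in the nucleus and a few in mitochondrial DNA, and neurons depend heavily on this pathway to restore their ion gradients. Several subunits of complex IV exist in a ubiquitous form and in a form restricted to heart, skeletal muscle or testis.

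By role, the members comprised 7 core subunits, 29 accessory subunits and 8 assembly factors of complex I, 4 subunits of complex II, 9 of complex III, 10 ubiquitous subunits of complex IV, 9 restricted isoforms of complex IV and related genes, 5 genes of F1 and 12 of Fo and the stalks. A further 4 protein-coding genes that met the rule (Cox5b, Ndufb1, Ndufb4b and Ndufb4c) and 19 pseudogenes had no named probe. Subunits encoded in mitochondrial DNA were not analysed here.

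The 24 male mice were heterozygous APPswe/PS1dE9 mice (APP/PS1), which carry mutant human APP and presenilin transgenes, or their WT littermates, on a C57Bl6/J background. MSX-3, which dissolves in water and is converted to MSX-2, an antagonist of the adenosine receptor encoded by Adora2a, was given at 0.3 g/L in the drinking water, whereas control mice drank H2O. According to the sample labels, MSX-3 was given from 3 months of age (4 months in the deposited text on the series), and tissue was taken at 9 to 10 months. Both tissues of every mouse were hybridized, which made 8 groups of 6 arrays (WT or APP/PS1 mice on H2O or MSX-3, in each tissue).

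All levels below are log2 intensities minus the 75th percentile of their array, so that a value of 1 is a doubling relative to that percentile. The scanner software found no grid on 2 cortex arrays (WT H2O mouse 310 and WT MSX-3 mouse 298), which were left out and reduced these groups to 5 arrays. On the other 46 arrays, the 75th percentile lay between 535.1 and 1084 intensity units, and 55.83% to 75.51% of probes were well above background. In both tissues, the lowest level of Prnp, whose promoter drives the transgenes and whose probe rises in carriers, was higher in the APP/PS1 mice (6.998) than the highest level in the WT mice (5.599). Markers of neurons of the hippocampus fell and those of cortical layers rose in the cortex as labelled (5 of 6 and 4 of 5 genes called in WT H2O mice). The samples were pieces of whole tissue, in which fewer cells of a type and less RNA per cell cannot be told apart.

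Before any comparison, 2 mice stood apart in the level of the members as a group. The median of the 92 members was 5.459 in the cortex of mouse 293 (APP/PS1, MSX-3), against 4.849 to 5.027 in the other 5 mice of its group. It was 4.624 in the cortex of mouse 255 (APP/PS1, H2O), against 4.859 to 4.986 in the other 5. Both mice kept this position in the hippocampus, where the medians were 5.151 (mouse 293) and 4.692 (mouse 255). The hippocampus array of mouse 293 also had the lowest share of probes well above background (55.83%). The medians of the members in the groups of these mice are therefore also given without 1 or the other of them where they moved most. Over all mice with both arrays, the median deviated from its group mean in the same direction in both tissues in 13 of 22.

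**Figure D1:**
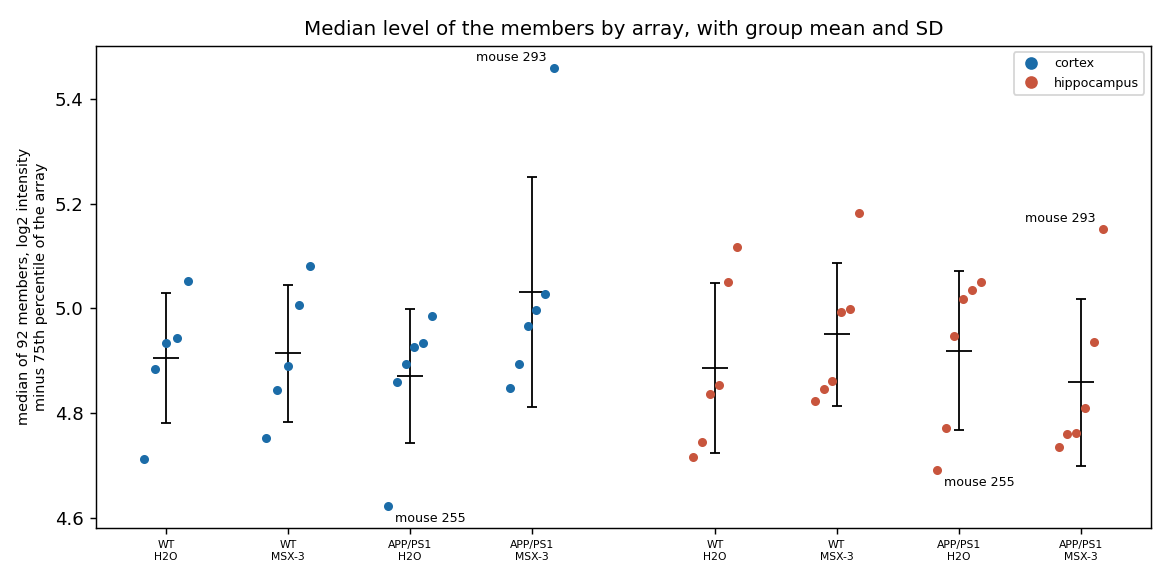
The median level of the 92 members on each of 46 arrays (y axis, log2 intensity minus the 75th percentile of the array) is plotted for the 8 groups (x axis), each point being 1 mouse and each bar the group mean ± SD. Mouse 293 (5.459 in the cortex) and mouse 255 (4.624 in the cortex) lie apart from the other mice of their groups.

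The members varied little between mice of the same group. The SD within groups had a median of 0.172 over the members, against 0.26 over all 39065 probes kept in either tissue, unmatched for intensity. The lowest was 0.0989 for Atp5b, which encodes the catalytic beta subunit of F1, and the highest were 1.06 for Cox8b, 0.651 for Cox7b2 and 0.347 for Cox4i2, all of them restricted isoforms of complex IV. In the 8 comparisons of genotype or treatment within a tissue, the 95% confidence interval of the difference lay within 1.5-fold in either direction for 86 to 89 of the 92 members.

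Because the clearest differences concerned isoforms, the sequences before the start of 5 complex IV genes are shown first. They are the 250 bases upstream of the annotated start (RefSeq, build GRCm38.p6, given 5′ to 3′ on the strand of the gene) of 2 restricted isoforms that differed between the tissues, Cox7a1 and Cox6b2, and of the ubiquitous forms Cox7a2, Cox6a1 and Cox6b1. The third restricted isoform, Cox6a2, had no entry in the promoter table. Capitals mark matches, on either strand, to the motif of nuclear respiratory factor 1 (NRF1) or to the core of the ETS factor GABP, CCGGAAG, both known from promoters of respiratory genes.
Cox7a1, chr7:30183921-30184170 (+): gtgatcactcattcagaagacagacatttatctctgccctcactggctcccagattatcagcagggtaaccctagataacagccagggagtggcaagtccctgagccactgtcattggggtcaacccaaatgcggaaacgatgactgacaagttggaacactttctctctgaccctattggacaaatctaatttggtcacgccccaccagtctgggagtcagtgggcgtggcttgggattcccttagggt
Cox7a2, chr9:79759854-79760103 (-): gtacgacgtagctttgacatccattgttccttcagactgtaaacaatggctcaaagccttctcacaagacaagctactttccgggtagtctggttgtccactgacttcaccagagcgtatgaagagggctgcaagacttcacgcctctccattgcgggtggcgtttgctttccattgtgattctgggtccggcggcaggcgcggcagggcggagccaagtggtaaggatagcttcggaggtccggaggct
Cox6a1, chr5:115348959-115349208 (-): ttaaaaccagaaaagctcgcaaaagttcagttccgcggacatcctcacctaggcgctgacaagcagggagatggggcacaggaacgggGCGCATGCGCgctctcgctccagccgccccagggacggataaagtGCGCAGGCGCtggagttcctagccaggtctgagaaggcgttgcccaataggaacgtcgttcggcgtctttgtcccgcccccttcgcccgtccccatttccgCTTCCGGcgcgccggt
Cox6b2, chr7:4753095-4753344 (-): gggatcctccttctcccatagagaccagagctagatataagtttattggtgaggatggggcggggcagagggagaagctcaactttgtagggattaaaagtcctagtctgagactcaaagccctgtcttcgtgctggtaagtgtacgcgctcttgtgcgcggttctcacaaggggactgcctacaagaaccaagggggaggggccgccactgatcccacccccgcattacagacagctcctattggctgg
Cox6b1, chr7:30626115-30626364 (-): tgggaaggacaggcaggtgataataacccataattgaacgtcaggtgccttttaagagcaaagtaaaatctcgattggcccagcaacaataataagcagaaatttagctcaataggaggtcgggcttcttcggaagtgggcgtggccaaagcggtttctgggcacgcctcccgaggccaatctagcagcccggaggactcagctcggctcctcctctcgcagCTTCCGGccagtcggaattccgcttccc

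The window of Cox6a1 held 2 NRF1 matches and 1 ETS match and that of Cox6b1 held 1 ETS match, whereas those of Cox7a1, Cox7a2 and Cox6b2 held none. Of the 93 members, 75 matched an entry of the promoter table. An NRF1 match was found in 13 of the 75 windows (17.3%, against 3.86% of all 27025 windows), and an ETS match likewise in 13 (17.3%, against 7.05%). The YY1 motif AAGATGGCG was found in 0 of 75 (0.607% of all windows), and a TATA box, TATAAA, in 7 (9.33% against 13%). No member window held overlapping matches of these motifs. The member windows were richer in CpG, with a median of 15 CpG sites against 6 and a GC content of 57.2% against 52%. An NRF1 or ETS match was held by 0 of the 5 restricted isoforms or related genes in the table, and among the 8 ubiquitous complex IV genes 1 held an NRF1 match and 2 an ETS match, so that most windows of either kind held none. These counts describe letters within a fixed window and do not show that a factor binds there.

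Between the tissues, Cox6a2 was higher in the cortex than in the hippocampus in each of the 4 groups of mice, Cox7a1 was higher in 2 of them by the same call, and Cox6b2 was lower in 1. Most other members were at similar levels in both tissues. A probe was called when its limma adjusted p was under 0.05 and the groups differed by 1.5-fold or more. By this rule, 15.8% of all 39065 probes were called in WT H2O mice, 16.5% in WT MSX-3 mice, 15% in APP/PS1 H2O mice and 17.4% in APP/PS1 MSX-3 mice, but only 3, 1, 1 and 2 of the 92 members. The adjusted p alone was passed by 5, 2, 9 and 9 members in these groups, against 26%, 27%, 30.9% and 30.5% of all probes. On this rule, 16 members (17.4%) passed in at least 1 of the 4 groups of mice, against 45.7% of all probes. Only Cox6a2 passed in all 4 groups (1.09% of the members against 16.1% of the probes).

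Cox6a2 encodes the heart and skeletal muscle isoform of subunit VIa, which lies at the surface of complex IV. In WT H2O mice, it was at 1.996, 2.14, 2.21, 2.27 and 2.56 in the cortex, whereas in the hippocampus it ran from -0.090 through a median of 0.55 to 1.04. The 2 groups of arrays did not overlap, which was also the case in the other 3 groups of mice. The share of all probes without overlap between the tissues was not counted. Other members without overlap in single groups of mice included Cox5a (WT H2O), Ndufaf2 (WT MSX-3) and Cox7a1 (APP/PS1 MSX-3). The difference was 1.73 ± 0.20 (SE, limma adjusted p = 4.8e-05) in WT H2O mice and 1.41 ± 0.11 (adjusted p = 3.75e-06) in WT MSX-3 mice. In APP/PS1 mice, it was 1.32 ± 0.18 on H2O (adjusted p = 0.000138) and 1.82 ± 0.19 on MSX-3 (adjusted p = 1.02e-05). Within single mice, Cox6a2 was higher in the cortex in 22 of 22, by 0.676 to 2.65 with a median of 1.52. The difference was between 1.39 and 1.84 within each scan day that held both tissues of a group. Its ubiquitous counterpart, Cox6a1, was at 8.10 ± 0.16 (SD, n = 5) in the cortex and 8.03 ± 0.079 (n = 6) in the hippocampus of WT H2O mice, and was higher in the cortex in 14 of 22 mice.

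Cox7a1 encodes the heart and muscle isoform of subunit VIIa. In WT H2O mice, it was at 0.15, 0.33, 0.51, 0.61 and 0.88 in the cortex and at -0.61, -0.10 and 0.31 (lowest, median and highest of 6 arrays) in the hippocampus, so that the groups overlapped. The difference was 0.63 ± 0.18 (SE, adjusted p = 0.0192) in WT H2O, 0.56 ± 0.20 (adjusted p = 0.062) in WT MSX-3, 0.33 ± 0.10 (adjusted p = 0.0257, below 1.5-fold) in APP/PS1 H2O and 0.84 ± 0.20 (adjusted p = 0.00769) in APP/PS1 MSX-3 mice. In single mice, Cox7a1 was higher in the cortex in 21 of 22. With the mouse as a block, the difference in WT H2O mice was 0.63 with an adjusted p of 0.133, and that in WT MSX-3 mice 0.60 with an adjusted p of 0.0456. The call in WT H2O mice was also lost without mouse 56 (0.49, adjusted p = 0.0962), mouse 308 (0.64, adjusted p = 0.0588) or mouse 318 (0.51, adjusted p = 0.0791), and without mouse 303 the difference in WT MSX-3 mice was called (0.61, adjusted p = 0.0423). The ubiquitous counterpart, Cox7a2, was higher in the cortex in 14 of 22 mice, with differences from -0.53 to 0.61.

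Cox6b2, the isoform of subunit VIb known from testis, ran in the opposite direction. In WT H2O mice, it was at -2.11, -2.10, -2.01, -1.99 and -1.86 in the cortex and at -1.91, -1.40 and -0.80 (lowest, median and highest) in the hippocampus. The lowest hippocampus array thus reached the cortical range. The difference was -0.65 ± 0.20 (SE, adjusted p = 0.032) in WT H2O, -0.44 (adjusted p = 0.115) in WT MSX-3, -0.36 (adjusted p = 0.149) in APP/PS1 H2O and -0.53 (adjusted p = 0.0194, below 1.5-fold) in APP/PS1 MSX-3 mice. The call in WT H2O mice was lost without mouse 56, 71, 258 or 308 (differences of -0.58, -0.59, -0.54 and -0.70, adjusted p = 0.0727, 0.123, 0.104 and 0.0624), and without mouse 266 that in APP/PS1 MSX-3 mice was gained (-0.61, adjusted p = 0.0105). Mice 56, 71 and 258 were among the 6 mice whose hippocampus arrays had high levels of a choroid plexus gene (given below with Cox8b). Only 3 of 22 mice had a higher level of Cox6b2 in the cortex, whereas Cox6b1, the ubiquitous form, was higher there in 11 of 22. Cox7b2, a further restricted isoform, was higher in the cortex by 0.22 to 0.78 in the 4 groups of mice but was not called (lowest adjusted p = 0.0837, in APP/PS1 H2O mice).

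**Figure D2:**
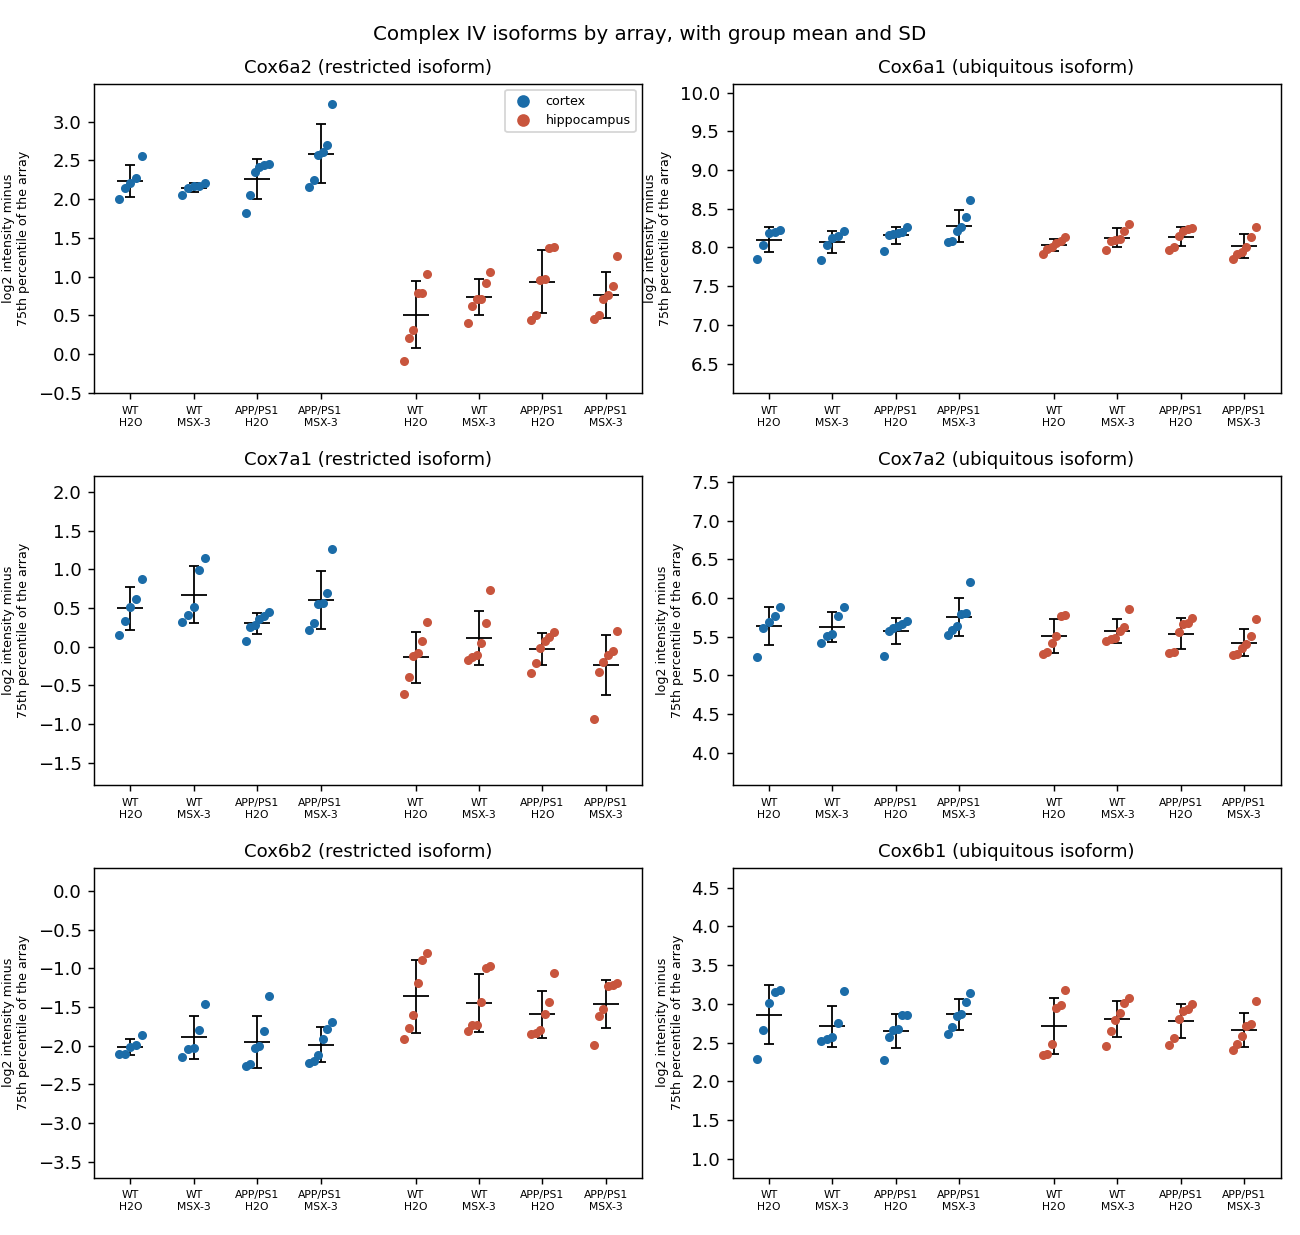
Levels of 3 restricted isoforms of complex IV (left) and of their ubiquitous counterparts (right) are plotted for the 8 groups (x axis) as log2 intensity minus the 75th percentile of the array (y axis, spanning 4 log2 units in every panel), each point being 1 mouse and each bar the group mean ± SD. Cox6a2 separates the cortex (blue) from the hippocampus (red) in all 4 groups of mice, whereas Cox6a1, Cox7a2 and Cox6b1 overlap.

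The remaining members that passed the adjusted p did so by less than 1.5-fold. Cox5a, a matrix-side subunit of complex IV, was higher in the cortex by 0.24 ± 0.073 (SE, adjusted p = 0.0293) in WT H2O and 0.42 ± 0.11 (adjusted p = 0.0147) in APP/PS1 MSX-3 mice, and in 20 of 22 single mice. Ndufaf2, an assembly factor of complex I, was higher by 0.37 (adjusted p = 0.0311), 0.31 (adjusted p = 0.0144) and 0.34 (adjusted p = 0.0243) in WT H2O, WT MSX-3 and APP/PS1 MSX-3 mice, while the difference was 0.098 (adjusted p = 0.516) in APP/PS1 H2O mice. Ndufb5, an accessory subunit of complex I, was higher by 0.39 (adjusted p = 0.0196) in APP/PS1 MSX-3 mice and in 21 of 22 single mice. In APP/PS1 MSX-3 mice, Ndufv1, a core subunit of complex I that binds NADH, was higher by 0.34 (adjusted p = 0.0148). The complex III subunits Uqcrc1 and Cyc1 were higher by 0.41 (adjusted p = 0.0164) and 0.35 (adjusted p = 0.0318) in the same mice. In APP/PS1 H2O mice, the accessory subunits Ndufb3 and Ndufb11 were lower in the cortex by 0.34 and 0.28 (-0.34, adjusted p = 0.0317, and -0.28, adjusted p = 0.0209), as was Uqcrfs1, the Rieske iron-sulfur protein of complex III (-0.27, adjusted p = 0.0294). Ndufa1, Ndufa5 and Ndufa10, further accessory subunits of complex I, and Uqcrc2 were lower in the cortex of these mice by smaller amounts (-0.21, -0.20, -0.24 and -0.19, adjusted p = 0.0457, 0.0372, 0.0434 and 0.04).

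The median difference over the 92 members was 0.033 in WT H2O, -0.047 in WT MSX-3, -0.066 in APP/PS1 H2O and 0.18 in APP/PS1 MSX-3 mice, against -0.055, -0.025, -0.0036 and -0.091 over all probes. The sign was the same in all 4 groups of mice for 25 of the 92 members (27.2%) and for 59.7% of all probes. In WT H2O mice, the 10 ubiquitous subunits of complex IV were all above 0, with a median of 0.14, as they were in APP/PS1 MSX-3 mice (median 0.28). By contrast, 5 of the 10 were above 0 in WT MSX-3 mice (median 0.014) and 7 in APP/PS1 H2O mice (median 0.053). Of the 12 members of Fo and the stalks, none passed the adjusted p in any group of mice (lowest 0.0557, Atp5g1 in APP/PS1 H2O mice). In WT H2O mice, only Atp5j, Atp5j2, Atp5k and Atp5o were above 0 (0.037 to 0.091), and in WT MSX-3 mice only Atp5pb was (0.028). In APP/PS1 H2O mice, 0 of the 12 were above 0 (median -0.092), whereas in APP/PS1 MSX-3 mice all 12 were (median 0.12). Without mouse 293, the median over all members in this last group was 0.16 (77 of 92 above 0), and the lowest value on leaving out any 1 of its mice was 0.13, without mouse 267. The median in WT H2O mice was -0.016 without mouse 56 and 0.11 without mouse 258, that in WT MSX-3 mice -0.079 without mouse 282, and that in APP/PS1 H2O mice -0.11 without mouse 259.

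**Figure D3:**
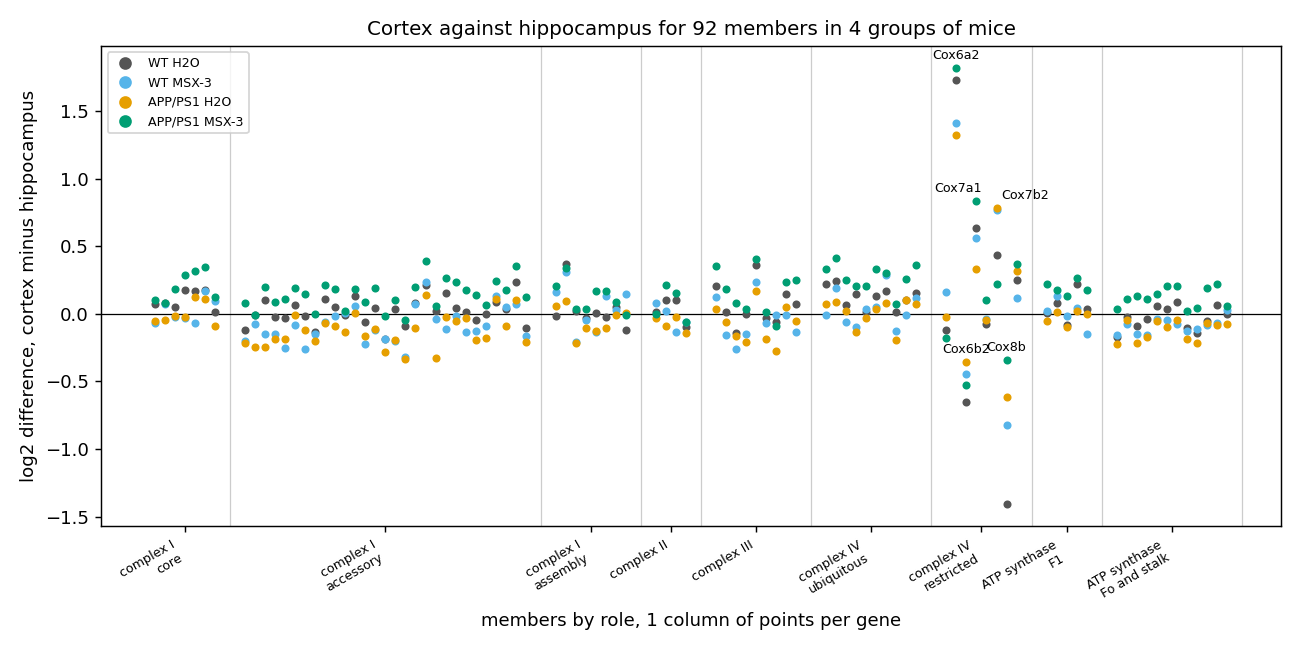
The difference between cortex and hippocampus (y axis, log2, above 0 when higher in the cortex) is plotted for 92 members ordered by role (x axis), with 1 point per gene for each of the 4 groups of mice (colors). Cox6a2 stands at 1.32 to 1.82, Cox7a1 at 0.33 to 0.84 and Cox6b2 at -0.65 to -0.36, while most members lie near 0.

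Some markers of other cells and a few regulators of mitochondria also differed between the tissues. Of 10 markers of inhibitory interneurons (a list added after the values were seen), 8 passed the adjusted p in the cortex of WT H2O mice (26% of all probes did), all of them higher, with a median of 0.93 over the 10 genes. Among them, Pvalb was higher by 1.95 (adjusted p = 1.29e-06) and Vip by 1.96 (adjusted p = 9.83e-07). The log2 of their summed level was 7.275 to 7.471 in the cortex and 6.559 to 7.158 in the hippocampus of these mice. Lhx6, also on the list, ran the other way, with a mean level of 4.44 in the cortex and 4.782 in the hippocampus of these mice. Of 6 markers of heart and skeletal muscle, 5 could be tested and 4 were higher in the cortex, for instance Myl1 by 3.103 and Tnnt2 by 2.12, both of which encode contractile proteins. The log2 of the summed level of the 6 genes was 1.309 to 1.781 in the cortex and -0.3594 to -0.1388 in the hippocampus of these mice. Ckm, the creatine kinase of muscle, was well above background on 0 cortex arrays. Among 17 regulators of mitochondrial biogenesis, 4 were higher and 1 was lower by the adjusted p in WT H2O mice, where 26% of all probes passed it. The median over the list was 0.11. Only 1 of the 17 was called there (15.8% of all probes were), Esrrg, which encodes an estrogen-related receptor and was higher by 1.34 (adjusted p = 0.000112). The part of these genes in the differences of Cox6a2 and Cox7a1 was not tested. The other lists of the pathway, namely 36 assembly factors (35 measured), 17 genes of the citric acid cycle and 11 carriers and forms of cytochrome c, held 0 called genes in WT H2O mice, with 3, 1 and 2 genes past the adjusted p.

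Cox8b, the heart and muscle isoform of subunit VIII, varied most between mice. In the hippocampus, it ran from -3.21 to 0.88 with a median of -2.53, and in the cortex from -3.31 to -1.84. It was at 0.88, 0.71 and 0.45 in 3 WT H2O mice, 0.30 in 1 APP/PS1 H2O mouse, 0.095 in 1 APP/PS1 MSX-3 mouse and -0.0013 in 1 WT MSX-3 mouse, while the next highest array was at -1.47. Thus, the high levels were found on 6 of 24 hippocampus arrays, spread over the 4 groups, and on none of the 22 cortex arrays. The same 6 arrays had the highest levels of Ttr, the transthyretin gene that marks the choroid plexus, at 7.04 to 7.59 against 2.78 for the next. The log2 of the summed level of the 6 choroid plexus markers reached 7.249 to 7.71 in the 4 hippocampus groups and 1.224 to 2.471 in the cortex. The mice of these 6 arrays (56, 71, 258, 259, 283 and 303) also had low differences of Cox6b2 between cortex and hippocampus, from -1.21 to -0.92. In the other mice with both arrays, this difference of Cox6b2 ran from -0.97 (mouse 319) to 0.47 (mouse 255). The part of choroid plexus tissue in the levels of Cox8b and Cox6b2 was not tested beyond these values. Cox8b was called in 0 comparisons by limma and was at an unadjusted p under 0.05 in 2, both of them on MSX-3 in the cortex. Its largest difference, -1.41 between cortex and hippocampus in WT H2O mice, had an adjusted p of 0.268, and that between APP/PS1 and WT hippocampus on H2O was -1.16 ± 0.91 (SE, adjusted p = 0.694).

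**Figure D4:**
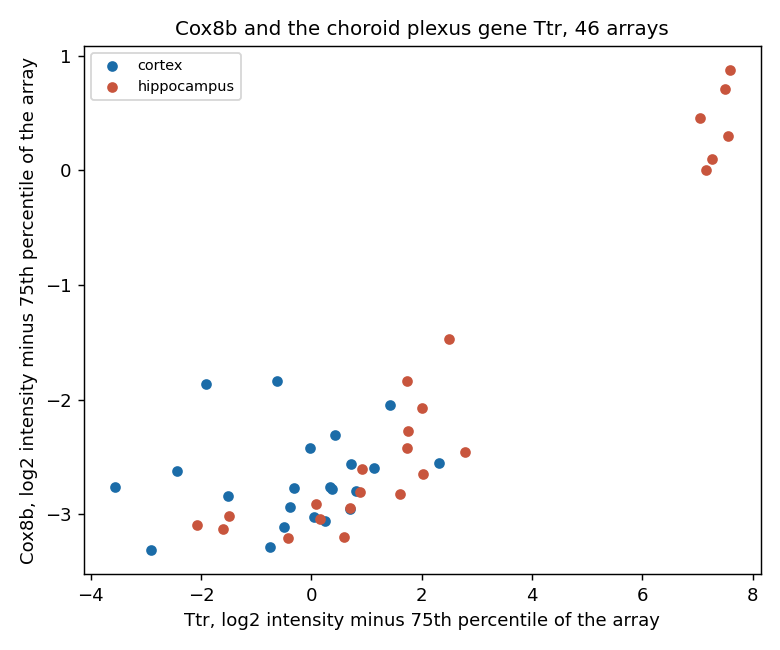
The level of Cox8b (y axis) is plotted against that of Ttr (x axis), both as log2 intensity minus the 75th percentile of the array, on 22 cortex arrays (blue) and 24 hippocampus arrays (red). The 6 hippocampus arrays at the upper right have Ttr levels of 7.04 to 7.59 and Cox8b levels of -0.0013 to 0.88, and the others reach at most 2.78 and -1.47.

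APP/PS1 mice were then compared with WT mice on H2O to see whether the respiratory chain was altered by genotype. In the cortex, 0 of 92 members were called by limma, against 1.49% of 37680 probes, and 3 members were at an unadjusted p under 0.05 (11.7% of probes). The members had a median difference of -0.032 (all probes -0.030), with 28 of 92 above 0. The lowest unadjusted p were found for Ndufaf2 (-0.26 ± 0.10, SE, adjusted p = 0.361, with 1 array lacking a value), Ndufs1, the largest subunit of complex I (-0.26 ± 0.10, adjusted p = 0.373), and Ndufa10, an accessory subunit (-0.24 ± 0.10, adjusted p = 0.413). Ndufs1 was at 3.70, 4.02, 4.06, 4.10 and 4.13 in WT mice and at 3.57, 3.72 and 3.93 (lowest, median and highest) in APP/PS1 mice, so that the groups overlapped. All 7 core subunits of complex I and all 4 subunits of complex II were below 0, with medians of -0.094 and -0.082, and 0 of these 11 genes passed the adjusted p.

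The sign of the median of the members was not stable. It was 0.060 within the first scan day (5 against 2 arrays) and -0.29 within the second (1 against 3), but the only APP/PS1 array of the second day was that of mouse 255, so that day and mouse cannot be told apart there. The median was 0.012 without mouse 255, -0.059 without mouse 258 and 0.10 with the slide as a fixed block. In the same comparison, 4 of 6 microglia markers and 1 of 6 astrocyte markers were called, with Cd68, a lysosomal protein of phagocytes, higher by 2.14 (adjusted p = 1.25e-06) and Gfap, the intermediate filament of reactive astrocytes, by 2.70 (adjusted p = 1.25e-06).

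In the hippocampus on H2O, 0 of 92 members were called (0.393% of 38128 probes), and 0 were at an unadjusted p under 0.05 (10.2% of probes). The median difference was 0.085 (all probes -0.026), with 76 of 92 members above 0. The highest ranks were held by Atp5h, a subunit of the peripheral stalk (0.18 ± 0.085, SE, adjusted p = 0.497), Ndufb4 (0.17, adjusted p = 0.518) and Uqcrb, a small subunit of complex III (0.18, adjusted p = 0.531). Of the markers, Cd68 was called (1.21, adjusted p = 8.54e-05) and Gfap was not (0.70, adjusted p = 0.0634). All 6 APP/PS1 arrays but only 2 of the 6 WT arrays were scanned on the first day, so genotype and scan day cannot be fully told apart. The median was 0.16 within the first scan day (6 against 2 arrays), 0.044 without mouse 325, -0.017 with the slide as a fixed block and 0.016 after quantile normalization. The difference between the genotype effects of the 2 tissues (cortex less hippocampus) was called for 0 members (0.238% of 39065 probes). An unadjusted p under 0.05 was found for 1 member (4.32% of probes), Ndufb6 (-0.35 ± 0.15, SE, adjusted p = 0.973).

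On MSX-3, the genotype comparison by limma called 0 members in the cortex (1.42% of probes) and 0 in the hippocampus (0.312%). An unadjusted p under 0.05 was found for 3 members in the cortex (12.1% of probes) and 0 in the hippocampus (4.66%). In the cortex, the median was 0.12 (all probes -0.029), with 77 of 92 members above 0, and fell to 0.052 without mouse 293 and 0.017 after quantile normalization. Within the first scan day, it was 0.10 (6 against 3 arrays, 78 above 0), and the second day held no APP/PS1 array of this comparison. Cox6a2 had the smallest p in this comparison (0.43 ± 0.17, SE, adjusted p = 0.33). It was at 2.06 to 2.21 in WT and at 2.15 to 3.22 in APP/PS1 mice, the highest value being that of mouse 293. In the hippocampus, the median was -0.080 (all probes 0.0058), with 10 of 92 members above 0. It was -0.14 without mouse 293 (6 above 0) and -0.040 without mouse 303 (21 above 0).

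MSX-3 was next compared with H2O to ask whether the treatment altered the same genes. In the cortex of APP/PS1 mice, most members were slightly higher on MSX-3, by a median of 0.17 (all probes -0.018), and 88 of 92 were above 0. By mouse, the median of the 92 members was 5.03 ± 0.22 (SD, n = 6) on MSX-3 and 4.87 ± 0.13 (n = 6) on H2O, with overlapping ranges. The members were measured on the same arrays, so counts of members are not counts of independent observations. No member was called by limma, where the share of all probes called was 0%, and the smallest adjusted p of a member was 0.73. An unadjusted p under 0.05 was found for 11 members, all higher (12%), against 2.47% of all probes in this direction and 5.74% in either. Every member of complexes I, II and III, of the ubiquitous form of complex IV and of ATP synthase was above 0, with medians from 0.12 for complex II to 0.19 for accessory subunits of complex I, whereas 4 of the 8 restricted isoforms and related genes were.

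Cyc1, the cytochrome c1 of complex III, was at 3.99, 4.23 and 4.56 (lowest, median and highest) on H2O and at 4.43, 4.56 and 4.74 on MSX-3, a difference of 0.30 ± 0.11 (SE, adjusted p = 0.73). Uqcrc2, a core protein of the same complex, was the only member, among those with a value on every array, whose groups did not overlap (0.162% of probes were higher without overlap), with 4.18 to 4.447 on H2O and 4.447 to 4.74 on MSX-3 (0.21 ± 0.078, adjusted p = 0.73). The highest H2O array and the lowest MSX-3 array touched. Atp5b was at 6.81, 6.85 and 7.05 on H2O and at 6.91, 7.04 and 7.32 on MSX-3 (0.20 ± 0.081, adjusted p = 0.73). Other members at an unadjusted p under 0.05 were Ndufaf6, Atp5a1, Atp5g3, Ndufb5, Sdhb, Ndufa10 and Ndufa11, between 0.20 and 0.28, and Cox8b, at 0.62 ± 0.18 (adjusted p = 0.73). All 19 members with several testable probes had the same sign on each probe. For genotype on H2O, 11 of 19 did so in the cortex and 13 of 19 in the hippocampus. With most members above 0 on the same arrays, this count does not bear on the shift independently.

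The size of this shift depended on single mice and ran from 0.11 to 0.21 when each was left out in turn, the highest value being that without mouse 319. Without mouse 293, the median was 0.11, with 85 of 92 members above 0 and 5 at an unadjusted p under 0.05. Without mouse 255, the only array of these groups from the second scan day, it was 0.13, with 90 members above 0 and 4 at an unadjusted p under 0.05. The arrays left are those of the first scan day (6 against 5), so this is not a separate check of scan day. With all mice, 11 members and 5.74% of all probes were at an unadjusted p under 0.05. The share of all probes without either mouse was not counted, so the members can be set beside all probes only with all mice. The median of the members was 0.079 with the slide as a fixed block (82 above 0) and 0.088 after quantile normalization (87 above 0). In these groups, the share of probes well above background had a median of 61.91% on MSX-3 and 64.757% on H2O, where mouse 255 had the highest share (74.656%). The part of this share in the shift was not tested.

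In WT cortex, MSX-3 and H2O differed by a median of 0.0089 (48 of 92 above 0, and -0.026 to 0.039 when each mouse was left out). Of the members, 0 were called (0% of probes) and 0 were at an unadjusted p under 0.05 (8.64% of probes). Within the first scan day, the median was 0.089 (3 against 2 arrays, 81 above 0), and within the second -0.071 (2 against 3, 27 above 0). The test of the treatment effect in APP/PS1 minus that in WT cortex called 0 members (0% of probes), with 2 at an unadjusted p under 0.05 (4.66% of probes), Cox8b (0.80 ± 0.29, SE, adjusted p = 0.753) and Uqcrc2 (0.22 ± 0.10, adjusted p = 0.753). Its median was 0.16 with 84 of 92 members above 0, 0.084 without mouse 293, and -0.0031 with 44 above 0 when the slide was a fixed block.

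In the hippocampus, MSX-3 was accompanied by a median of -0.076 in APP/PS1 mice (14 of 92 above 0) and 0.087 in WT mice (84 above 0), with 0 members called by limma in either (0% of probes in both). An unadjusted p under 0.05 was found for 0 members in both (3.85% of probes in APP/PS1 and 4.97% in WT mice). The median in APP/PS1 mice was -0.012 within the first scan day (4 against 6 arrays, 39 above 0), -0.14 without mouse 293 and -0.042 without mouse 325. The median in WT mice was 0.22 within the first scan day and -0.059 within the second, and 0.048 without mouse 303. The treatment effect in APP/PS1 minus that in WT hippocampus had a median of -0.16 (8 above 0, -0.22 without mouse 293 and -0.10 without mouse 303), with 0 members called (0% of probes) and 1, Uqcrb, at an unadjusted p under 0.05 (4.86% of probes; -0.28 ± 0.12, SE, adjusted p = 0.89). These comparisons share groups (WT H2O mice are the controls of both the genotype and the WT treatment comparison, and APP/PS1 H2O mice enter both genotype and treatment), so that their medians do not bear on each other independently.

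**Figure D5:**
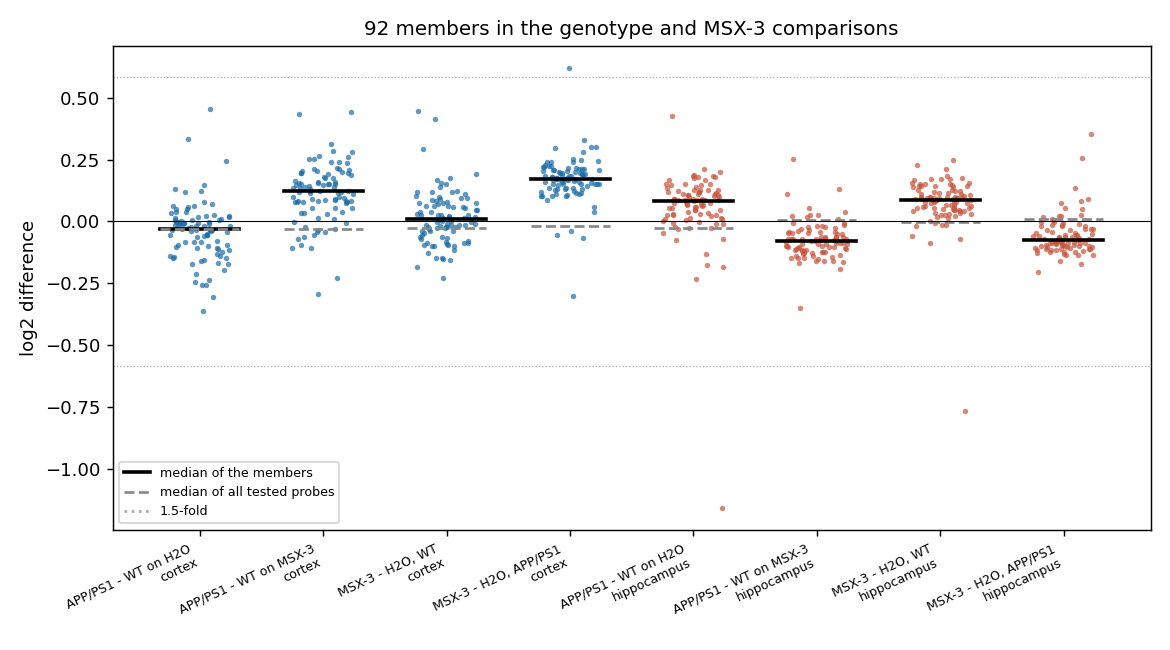
Log2 differences (y axis) of the 92 members in 4 cortex (blue) and 4 hippocampus (red) comparisons of genotype or MSX-3 (x axis) are shown with 1 point per gene, the median of the members (black line), the median of all tested probes (dashed line) and the 1.5-fold limits (dotted lines). The median of the members is highest for MSX-3 in APP/PS1 cortex (0.17), and the points outside the limits belong to Cox8b.

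The pathway lists around the members likewise held 0 called genes for genotype on H2O in the cortex (36 assembly factors, 17 regulators of biogenesis, 17 genes of the citric acid cycle, 11 carriers and forms of cytochrome c), with medians of -0.027, -0.077, -0.10 and -0.070. For MSX-3 in APP/PS1 cortex, these lists also had 0 called genes, and their medians were 0.14, 0.039, 0.13 and 0.14.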

How the data were processed

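Agilent one-color arrays (8 groups of 6, 7 slides, 2 scan days) were deposited as scanner output of Feature Extraction 10.7.3.1, per the file headers, with intensity values background-subtracted and detrended by the authors but not normalized between arrays. The series matrix deposited by the authors held the same 3022848 intensity values (tolerance 1e-06). Control spots (3671 of 62976) and spots flagged as non-uniform or population outliers (7 member values) were left out, log2 intensities were centered on the 75th percentile of the array, and spots of a probe were averaged. Probes (32994 of 56605 named through RefSeq accessions) were kept if they stood well above background on 4 or more arrays of 1 group in that tissue. The arrays set the precision by their number. Groups were compared with limma 3.58.1 (R 4.3.3, with data.table, version 1.17.8), fitting only the groups compared, with Benjamini-Hochberg adjustment over all kept probes. A call needed an adjusted p under 0.05 and a difference of 1.5-fold or more, as in the methods of the study. ± denotes SE for differences and SD for levels.

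Members, lists and named genes were chosen with earlier results of these data known, and the interneuron markers were added after the values were seen. Named genes were the called members (up to 10 per direction), the 3 with the smallest unadjusted p per direction, a fixed set of isoforms and core subunits, and the 2 leading genes of each other list. Further members were named after their values were seen, namely those passing the adjusted p between tissues or the unadjusted p on MSX-3 in APP/PS1 cortex, those not on the array, and the muscle and glial markers beyond the leading 2. Both tissues came from the same mice, which makes the mouse a block between tissues. The residuals of the 2 tissues of a mouse correlated with a median r of 0.0384 (-0.52 to 0.499, 22 mice, 10 above 0.1). The script was tested on simulated data.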

Additional observations from a re-analysis of the deposited data

Results flagged for a closer look

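Arrays lying far from the rest of their group were looked for in the median of the members and in 12 member genes, and 7 of 104 sets of arrays held one, where chance gives about 1 in 20. Mouse 255 of the APP/PS1 H2O group was low in the cortex for the median of the members (4.624, others 4.859 to 4.986), for Cox6a1 (7.952, others 8.159 to 8.267) and for Cox7a2 (5.253, others 5.571 to 5.707). Mouse 293 of the APP/PS1 MSX-3 group was high in the cortex for the median of the members (5.459, others 4.849 to 5.027). Cox7b2 was low in the cortex of WT MSX-3 mouse 282 (-3.002, others -1.482 to -1.036). Ndufa4l2, an inducible relative of Ndufa4, was high in the cortex of APP/PS1 H2O mouse 259 (-0.3675, others -1.623 to -1.178). Cox8b was high in the hippocampus of the same mouse (0.2979, others -3.195 to -2.607), on 1 of the 6 arrays with the highest Ttr. The tests of interaction between genotype and treatment, and between genotype and tissue, called 0 members by limma.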

How the results depend on the processing

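Of 746 recomputed counts and medians, 722 moved by less than their spread or 1.5 times, and 0 members reversed a called direction. With the 2 arrays without a grid kept in, the median of the members became 0.7575 for genotype on H2O in the cortex, 0.9412 for genotype on MSX-3 in the cortex, -0.8172 and -0.8693 between tissues of WT H2O and WT MSX-3 mice, where 0 members were called, and 0.7045 for genotype by tissue. With the slide as a fixed block, the median was 0.1027 for genotype on H2O in the cortex and -0.003093 for the interaction in the cortex, and 2 members were called between tissues of APP/PS1 H2O mice, as with the slide as a random block (2). Array weights gave 1 called member, Ndufaf8, for MSX-3 in WT cortex (with 3030 of 37680 probes called), 2 between tissues of WT MSX-3 mice and 2 of APP/PS1 H2O mice. The member added in APP/PS1 H2O mice was Cox7b2 each time. Its difference was 0.65 with the fixed block (adjusted p = 0.0366), 0.71 with the random block (adjusted p = 0.0437) and 0.88 with array weights (adjusted p = 0.0387). With no minimum fold, 5, 2, 9 and 9 members were called between tissues of the groups in the order used above (WT before APP/PS1, H2O before MSX-3). With the mouse as a replicate block, 2 members, Cox6a2 and Cox7a1, were called in WT MSX-3 mice. Under this block, Cox7a1 lost its call in WT H2O mice, and no other call of a named member changed. The causes were not tested. Leaving out 1 mouse in turn gave 1 to 3, 1 to 2, 1 to 2 and 2 to 3 called members in these 4 groups. The call of Cox7a1 in WT H2O mice was lost in 8 of 22 alternatives (without mouse 56, 308 or 318, with the slide or the mouse as a block, and with other percentiles or arrays), and that of Cox6b2 in 7 of 22 (without mouse 56, 71, 258 or 308, with normexp correction, with no filter and with the arrays without a grid). Cox6a2 lost its call only with the arrays without a grid kept in (1.167, adjusted p = 0.388, and 0.9843, adjusted p = 0.331). The slide could not be fitted as a fixed block for genotype on MSX-3 in the cortex. The alternatives without mouse 293 in the report were chosen after the data were seen. Precision was limited by the number of arrays and, for Cox8b, Cox7b2 and Cox4i2, by the spread between mice.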
